A study of Homo sapiens with 3 samples.

Results

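The 9 genes SPI1, CEBPA, CEBPB, CEBPD, MAF, BHLHE40, PRDM1, ETS2, and RUNX1 encode transcription factors of the macrophage lineage. They were taken from a list of gene names, and every transcript probe that carried one of these names was read, which gave 14 of the 58201 transcript probes and 9 of the 25044 named genes on the arrays. The RNA came from THP-1 cells, a human monocytic leukemia line that the labels describe as monocytes of peripheral blood and that the phorbol ester PMA converts into macrophage-like cells. All cells had received PMA at 100 ng/mL for 24 to 36 h and were then rested in new medium overnight. The 3 groups were untreated macrophages (Ctrl), macrophages stimulated by imiquimod (IMQ), which toll-like receptors sense, and macrophages given DMD, a pure compound of the fungus Antrodia cinnamomea, before IMQ (IMQ+DMD). The label of the last group says IMQ+X, and X was taken to be DMD, the one other compound that the title and treatment description mention. Each label states 4 h and no dose of IMQ or DMD, whereas the general methods of the study describe a longer exposure to IMQ. Each group was 1 array of a single cell line, all 3 on 1 slide, so the differences below have neither a replicate check nor a p-value. Treatment with IMQ or DMD, array, and culture cannot be told apart. In such bulk RNA, fewer cells of a kind and less RNA per cell cannot be told apart either.

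PU.1, the product of SPI1, and the C/EBP proteins open and maintain the enhancers that give myeloid cells their identity, and RUNX1 works upstream of PU.1 and beside it. C/EBPβ and C/EBPδ are also known as acute-phase regulators that inflammatory signals induce in mature macrophages. MAF is linked to quiescent, tissue-resident macrophages, whereas BHLHE40, PRDM1 (Blimp-1), and ETS2 are known as regulators that signals such as toll-like receptor ligands can induce.

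The values are the fluorescence of Cy3-labeled RNA on probes of 60 bases, quantile normalized between the arrays by the authors and called normalized intensity here. They allow 1 probe to be compared between arrays and not 1 gene with another, since probes differ in how they bind. The scanner software rated all 14 probes well above background on each of the 3 arrays, and none of their spots was saturated or marked as an outlier. The share of all probes well above background was 66.6% to 72.0% per array. The precision is limited by the number of arrays. The only measured error is that of repeated spots. Probes printed in 10 spots had a median SD among them of 0.044 to 0.049 log2 units per array, and from such probes of like brightness each difference was given a technical SD, which covers noise within an array only. A difference was counted as large from 2-fold on, which is 1 unit on the log2 scale.

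After IMQ, 4 of the 9 genes exceeded their Ctrl level by 2-fold or more, and 0 were lower to that extent. Over all genes compared, 4.22% were at least 2-fold higher and 4.42% were at least 2-fold lower. These were BHLHE40, CEBPB, ETS2, and PRDM1, and they were 4.89-fold to 10.8-fold higher. RUNX1 was higher by a smaller step, SPI1 and CEBPD were close to their Ctrl levels, and CEBPA and MAF were lower. By probe, 7 of 14 were at least 2-fold higher, set against 4.19% of all probes compared, and 0 were at least 2-fold lower, set against 3.38%. The median log2 difference was 0.60 over the 9 genes and -0.02 over all 21155 genes compared. Without normalization between arrays the median difference of all probes moved to -0.49, and with scaling to the spike-in probes to -0.64. The size and sign of small differences thus depend on the scaling. The 9 genes kept their order without normalization. Scaling to the spike-in probes shifts all probes of an array by the same amount, so it could not change that order.

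**Figure D1:**
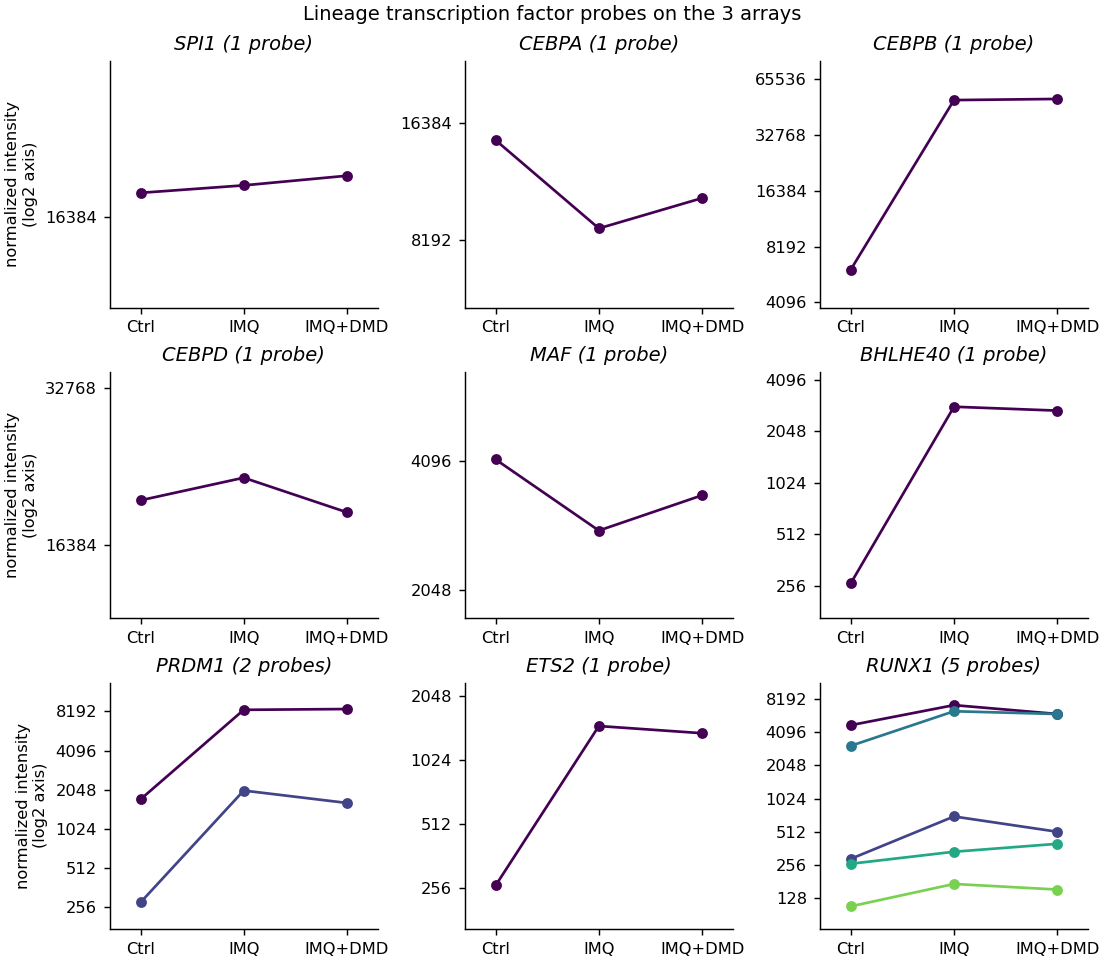
Normalized intensity of each of the 14 probes on the Ctrl, IMQ, and IMQ+DMD arrays, with 1 panel per gene and 1 line per probe on a log2 axis whose range differs between panels. Each point is 1 array, and there are no replicates. The lines of CEBPB, BHLHE40, PRDM1, and ETS2 step up from Ctrl to IMQ and stay near that level in IMQ+DMD, apart from the dimmer PRDM1 probe, which goes from 2016 to 1618, and those of CEBPA and MAF dip at IMQ.

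CEBPB encodes C/EBPβ, an activator of many cytokine genes. Its probe lies at chr20:48808989-48809048 on the plus strand (hg19) and is the one member probe with 10 spots. Its normalized intensity was 6151 in Ctrl, 50440 in IMQ, and 51151 in IMQ+DMD. Both IMQ arrays stood apart from the Ctrl array and were level with each other. Before normalization the 10 spots ranged from 6911 to 7681 on the Ctrl array, from 45979 to 49852 on the IMQ array, and from 42563 to 46218 on the IMQ+DMD array. These spots repeat the measurement within an array and are not replicates of a condition. The log2 difference was 3.04 for IMQ against Ctrl, an 8.20-fold higher level with a technical SD of 0.06, and 0.02 for IMQ+DMD against IMQ with a technical SD of 0.05. The technical SD is that of single spots and was not reduced for the 10 spots of this probe. Of all probes compared, 0.288% had a greater difference between IMQ and Ctrl.

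BHLHE40 encodes a basic helix-loop-helix repressor that binds E-boxes and is a known brake on IL-10 production. Its probe at chr3:5026260-5026319 on the plus strand (hg19) had a normalized intensity of 265 in Ctrl, 2849 in IMQ, and 2704 in IMQ+DMD. The Ctrl array was low and both arrays with IMQ were high. With a log2 difference of 3.43 for IMQ against Ctrl, a 10.8-fold higher level with a technical SD of 0.08, it had the greatest difference of the 14 probes. IMQ+DMD differed from IMQ by -0.08 with a technical SD of 0.06.

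PRDM1 encodes Blimp-1, a zinc finger repressor best known from plasma cells. It had 2 probes, at chr6:106557662-106557721 and chr6:106555123-106555182 on the plus strand (hg19). The first, the brighter one from which the gene was read, had a normalized intensity of 1725 in Ctrl, 8434 in IMQ, and 8553 in IMQ+DMD. The second had 277 in Ctrl, 2016 in IMQ, and 1618 in IMQ+DMD. Both probes were low in Ctrl and high in the other arrays, with log2 differences of 2.29 and 2.86 for IMQ against Ctrl. They disagreed on IMQ+DMD against IMQ, where the first differed by 0.02 with a technical SD of 0.06 and the second by -0.32 with a technical SD of 0.07.

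ETS2 encodes an ETS factor that acts downstream of the ERK pathway. Its probe at chr21:40196273-40196332 on the plus strand (hg19) had a normalized intensity of 263 in Ctrl, 1474 in IMQ, and 1364 in IMQ+DMD. Here too the Ctrl array was the low one. The log2 difference was 2.48 for IMQ against Ctrl, a 5.59-fold higher level with a technical SD of 0.08, and -0.11 for IMQ+DMD against IMQ with a technical SD of 0.07.

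The promoters of these 4 genes are shown because they are the members that were higher together, as the 250 bases before the first start that RefSeq lists for each gene on GRCh38.p14, 5′ to 3′ on the plus strand. Capitals mark matches, on either strand, to 9 motifs that were searched. These were AP-1 (TGANTCA), CRE (TGACGTCA), its half-site (TGACG, which is also part of every full CRE), C/EBP (TTNNGNAAT), PU.1 (GAGGAAG), the E-box (CACGTG), STAT (TTCNNNGAA), and the NF-κB and CArG box motifs.
CEBPB, chr20:50190333-50190582: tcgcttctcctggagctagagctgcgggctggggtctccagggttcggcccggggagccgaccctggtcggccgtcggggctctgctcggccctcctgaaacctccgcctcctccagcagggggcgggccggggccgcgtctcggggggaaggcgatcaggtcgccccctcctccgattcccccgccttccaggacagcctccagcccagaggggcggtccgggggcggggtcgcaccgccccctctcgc
BHLHE40, chr3:4979187-4979436: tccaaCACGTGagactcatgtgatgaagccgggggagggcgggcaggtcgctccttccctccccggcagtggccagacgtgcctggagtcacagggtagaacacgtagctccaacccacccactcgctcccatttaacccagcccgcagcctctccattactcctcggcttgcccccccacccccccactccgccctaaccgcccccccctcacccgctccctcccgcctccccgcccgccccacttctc
PRDM1, chr6:106086086-106086335: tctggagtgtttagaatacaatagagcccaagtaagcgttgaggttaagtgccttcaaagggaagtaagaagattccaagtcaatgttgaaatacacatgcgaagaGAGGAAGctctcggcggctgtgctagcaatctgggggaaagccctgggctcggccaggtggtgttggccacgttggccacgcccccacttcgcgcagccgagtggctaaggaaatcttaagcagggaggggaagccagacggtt
ETS2, chr21:38804933-38805182: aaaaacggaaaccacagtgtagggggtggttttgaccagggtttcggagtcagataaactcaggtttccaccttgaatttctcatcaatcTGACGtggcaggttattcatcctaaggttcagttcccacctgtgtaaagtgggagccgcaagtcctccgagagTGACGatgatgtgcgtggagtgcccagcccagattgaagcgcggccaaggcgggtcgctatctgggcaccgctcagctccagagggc

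The BHLHE40 window held 1 E-box, 245 to 240 bases before the start, a motif that the BHLHE40 protein itself is known to bind. The PRDM1 window held 1 PU.1 motif, 144 to 138 bases before the start, and the ETS2 window held the CRE half-site at 160 to 156 and at 87 to 83 bases. The CEBPB window held none of the 9 motifs and had the highest share of G and C, with 75.6% against 53.6% to 68.4% in the other windows. Of 35116 promoters of the same length, 6.34% held the E-box, 11.2% the PU.1 motif, 21.2% the CRE half-site, 1.65% the full CRE, 6.57% AP-1, 9.96% NF-κB, 9.85% C/EBP, 6.57% STAT, and 1.16% the CArG box. The table held 10 promoters of 7 of the 9 members. At a further listed start, CEBPB had an NF-κB motif 186 to 176 bases upstream in overlapping matches and the CRE half-site at 57 to 53 bases, PRDM1 had AP-1 at 42 to 36 bases and the CRE half-site at 75 to 71 and at 69 to 65 bases, and ETS2 had PU.1 at 63 to 57 bases. A full CRE stood 45 to 38 bases before the start of MAF. These matches describe the letters of the windows only, and binding was not measured.

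SPI1 encodes PU.1. Its probe at chr11:47376464-47376523 on the minus strand (hg19) had a normalized intensity of 18093 in Ctrl, 18655 in IMQ, and 19406 in IMQ+DMD. The 3 arrays were level, with log2 differences of 0.04 and 0.06 for IMQ against Ctrl and IMQ+DMD against IMQ, each with a technical SD of 0.06. Without normalization the first of these turned to -0.26, so its sign follows the scaling.

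CEBPA encodes C/EBPα, which drives granulocyte and monocyte differentiation and restrains proliferation. Its probe at chr19:33791353-33791412 on the minus strand (hg19) had a normalized intensity of 14832 in Ctrl, 8783 in IMQ, and 10514 in IMQ+DMD. Ctrl was the highest array and IMQ the lowest. The log2 difference was -0.76 for IMQ against Ctrl, whereas IMQ+DMD differed from IMQ by 0.26, each with a technical SD of 0.06. CEBPA and CEBPB, which belong to the same family, thus differed from Ctrl in opposite directions after IMQ. CEBPA stayed lower under every scaling that was tried, between -0.62 and -1.22.

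CEBPD encodes C/EBPδ, and its probe on chromosome 8 had a normalized intensity of 19933 in Ctrl, 22034 in IMQ, and 18901 in IMQ+DMD. IMQ was the highest of 3 close values. The log2 difference was 0.14 for IMQ against Ctrl, whereas IMQ+DMD differed from IMQ by -0.22, each with a technical SD of 0.06, and the first of these turned to -0.17 without normalization.

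MAF encodes c-MAF. Its probe at chr16:79628258-79628317 on the minus strand (hg19) had a normalized intensity of 4119 in Ctrl, 2813 in IMQ, and 3399 in IMQ+DMD. The order of the arrays was that of CEBPA, with a log2 difference of -0.55 for IMQ against Ctrl, whereas IMQ+DMD differed from IMQ by 0.27, each with a technical SD of 0.06. MAF stayed lower in IMQ under every scaling, between -0.47 and -1.07.

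RUNX1, a Runt-domain factor needed for blood cell development, had 5 probes, all on the minus strand of chromosome 21 (hg19). The array annotation pairs 3 of them with the transcripts NM_001001890 and NM_001754 and 2 with NM_001122607, the transcript of the short isoform known as RUNX1a. A pairing does not make a probe specific to that transcript, and whether the probes bind other RUNX1 transcripts was not tested. The gene was read from A_24_P96403 at chr21:36160391-36160450, which had 4707 in Ctrl, 7140 in IMQ, and 5939 in IMQ+DMD. A_33_P3211804 at chr21:36164083-36164142 had 3063 in Ctrl, 6285 in IMQ, and 5936 in IMQ+DMD. On both probes IMQ was the highest array and Ctrl the lowest.

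A_24_P34155 at chr21:36193583-36193642 had a normalized intensity of 292 in Ctrl, 705 in IMQ, and 513 in IMQ+DMD. A_33_P3211809 had 264 in Ctrl, 338 in IMQ, and 399 in IMQ+DMD, and was the one RUNX1 probe with its highest value in IMQ+DMD. The dimmest, A_33_P3211818, had 109 in Ctrl, 173 in IMQ, and 154 in IMQ+DMD. All 5 probes were thus higher in IMQ than in Ctrl, by log2 differences of 0.60, 1.04, 1.27, 0.36, and 0.67 in the order given, and 2 of the 5 exceeded 2-fold. Neither of these 2 did so without normalization, at 0.67 for A_33_P3211804 and 0.85 for A_24_P34155, or with scaling to the spike-in probes, at 0.52 and 0.70. The technical SD was 0.06 to 0.09 for the first 4 and 0.19 for A_33_P3211818. Without normalization A_33_P3211809 turned to -0.12.

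For the members with more than 1 probe, 3 probe sequences are shown, each 60 bases as placed on the array, to let the targets be looked up. PRDM1 A_23_P350451 and RUNX1 A_33_P3211809 disagreed with the probe that stands for their gene on IMQ+DMD against IMQ. RUNX1 A_33_P3211818 had the same directions as that probe and is shown as the dimmest.
PRDM1 A_23_P350451, chr6:106555123-106555182, plus strand: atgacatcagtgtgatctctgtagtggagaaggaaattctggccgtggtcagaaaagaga
RUNX1 A_33_P3211809, chr21:36231787-36231846, minus strand: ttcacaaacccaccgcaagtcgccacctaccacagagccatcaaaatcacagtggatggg
RUNX1 A_33_P3211818, chr21:36171601-36171660, minus strand: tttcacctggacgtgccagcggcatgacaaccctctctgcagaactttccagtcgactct

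**Figure D2:**
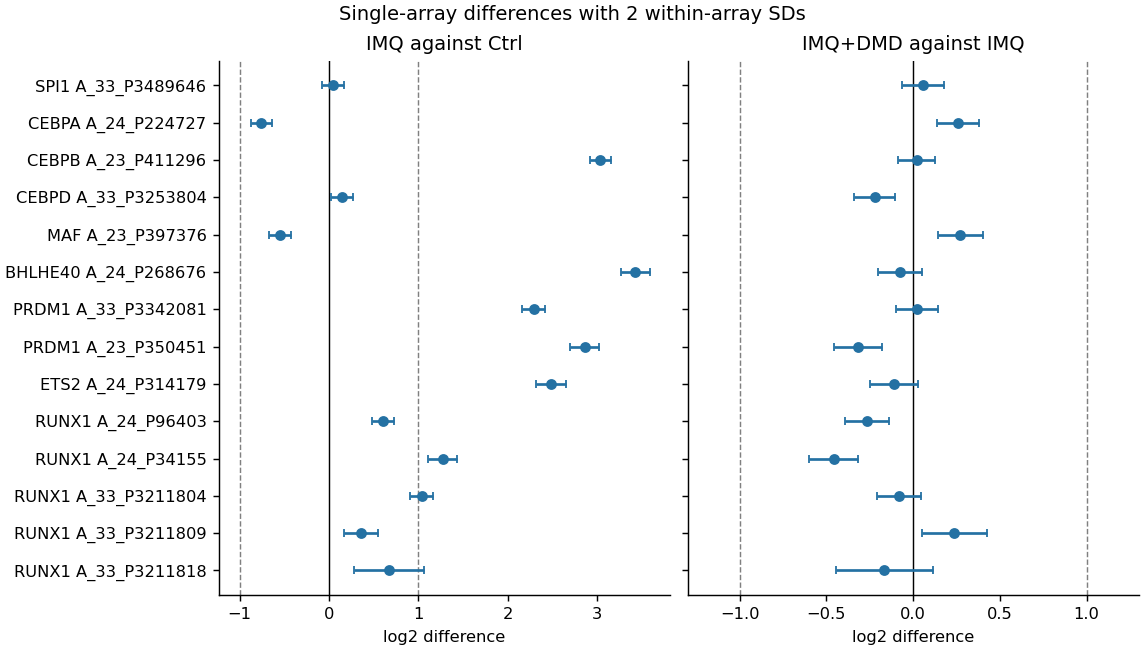
Log2 difference of each of the 14 probes in the left panel for IMQ against Ctrl and in the right for IMQ+DMD against IMQ, with bars of 2 technical SDs from repeated spots and dashed lines at 2-fold. The differences reach 3.43 in the first comparison, whereas all of the second lie between -0.46 and 0.27.

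The comparison of IMQ+DMD with IMQ sets 1 array against 1 other, so it cannot separate DMD from array and culture. At least 2-fold differences were seen for 0 of the 9 genes and 0 of the 14 probes, where 0.820% of all genes compared were at least 2-fold higher and 0.963% at least 2-fold lower, and for probes 1.06% and 1.27%. With such low shares over all features, a count of 0 among so few members is no result about them. The differences ran from -0.46 to 0.27, and the median over the genes was 0.02, beside -0.02 over all genes compared. Of the 14 probes, 7 differed by more than 2 technical SDs, 3 upward and 4 downward, where 14.6% of all probes compared differed that far upward and 15.0% downward. The technical SD is larger for dim probes, and all probes compared include dimmer ones than the members. The count and the shares are therefore not on a like basis. The members' differences lay within the range that many probes showed, with 9.18% of all probes compared below the lowest of them, RUNX1 A_24_P34155, and 17.5% above the highest, MAF. The upward ones were CEBPA, MAF, and RUNX1 A_33_P3211809. CEBPD, PRDM1 A_23_P350451, RUNX1 A_24_P96403, and RUNX1 A_24_P34155 were lower. These 7 kept their direction under each scaling, although CEBPA moved to 0.06 and MAF to 0.09 with scaling to the 75th percentile.

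Set against Ctrl, the IMQ+DMD array had the same 4 genes at least 2-fold higher and 0 at least 2-fold lower, beside 3.38% and 5.96% of all genes compared. By probe, 5 of 14 were at least 2-fold higher and 0 at least 2-fold lower, beside 3.09% and 4.91% of all probes compared. This comparison shares the Ctrl array with that of IMQ against Ctrl. The log2 differences were 3.06 for CEBPB, 3.35 for BHLHE40, 2.31 for PRDM1, and 2.37 for ETS2. In percent of the log2 difference between IMQ and Ctrl, these came to 101% for CEBPB, 97.8% for BHLHE40, 101% for PRDM1, and 95.5% for ETS2. The dimmer PRDM1 probe, A_23_P350451, had 88.9%. For RUNX1 the same figure was 55.8% on the probe that stands for the gene and ranged up to 166% on A_33_P3211809. CEBPA and MAF remained below Ctrl in IMQ+DMD, with log2 differences of -0.50 and -0.28.

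**Figure D3:**
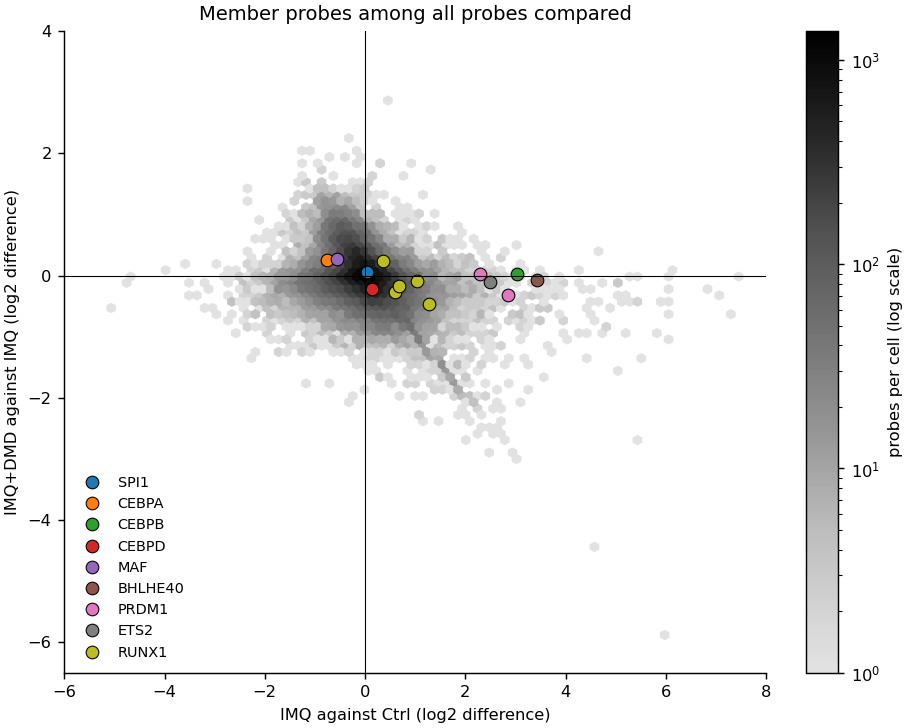
Log2 difference of IMQ+DMD against IMQ plotted over that of IMQ against Ctrl, with the member probes as colored points on the density of all probes compared in both, in grey on a log scale. Both axes use the IMQ array. CEBPB, BHLHE40, PRDM1, and ETS2 lie far to the right, near 0 on the vertical axis except for 1 PRDM1 probe at -0.32.

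Relatives of the members were read from lists by family, some of which also hold genes of other families. Of 14 other ETS factors 12 could be compared, and after IMQ 0 were at least 2-fold higher and 1 was at least 2-fold lower, FLI1 with a log2 difference of -1.25. The 3 other C/EBP factors had 0 in either direction, with differences from -0.12 to 0.73. Among the 6 other MAF factors 2 were at least 2-fold higher, the small MAF proteins MAFF with 2.39 and MAFK with 1.08, in contrast to the -0.55 of MAF itself. The 6 other listed genes with RUNX or CBF in their symbols had RUNX3 at 2.15, CBFA2T3 at -1.52, and RUNX1T1 at a bound of 1.76. RUNX1T1 was well above background on the IMQ array alone. Of the 5 genes listed beside BHLHE40 and PRDM1, BHLHE41 was higher by 1.43 and IRF4, which is of another family, by a bound of 2.31.

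Among 18 other transcription factors of myeloid lineages 16 could be compared, of which 7 were at least 2-fold lower after IMQ and 1 was at least 2-fold higher. The lower ones were KLF4 with a log2 difference of -2.03, MYB with -1.87, LMO2 with -1.68, HHEX with -1.57, MEF2C with -1.21, GFI1 with -1.20, and IRF8 with -1.15. Several of these, such as MYB and LMO2, are known from progenitors, and IRF8 and KLF4 from the monocyte lineage. GATA2, a factor of stem cells and mast cells, was higher by 2.09. Its log2 value in Ctrl was 4.56, near the lowest value well above background of 4.04, where repeated spots had a median SD of 0.28. The median of this list was -0.55, beside 0.60 for the 9 members and -0.02 for all genes.

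Myeloid genes known as targets of PU.1 and C/EBP, of which 13 of 15 were on the arrays under the names used, had 2 at least 2-fold higher after IMQ and 1 at least 2-fold lower, with a median of -0.38. CSF2RA was higher by 2.42, IL1B, a known target of C/EBPβ, by 4.45, and CYBB was at -1.15. For IMQ+DMD against IMQ, RUNX1T1 at a bound of -1.72 and IRF4 at -1.49 were the at least 2-fold differences among the lists of transcription factors and targets. IRF4 was dim, with a log2 value of 4.86 in IMQ+DMD, where the lowest value well above background was 4.08.

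**Figure D4:**
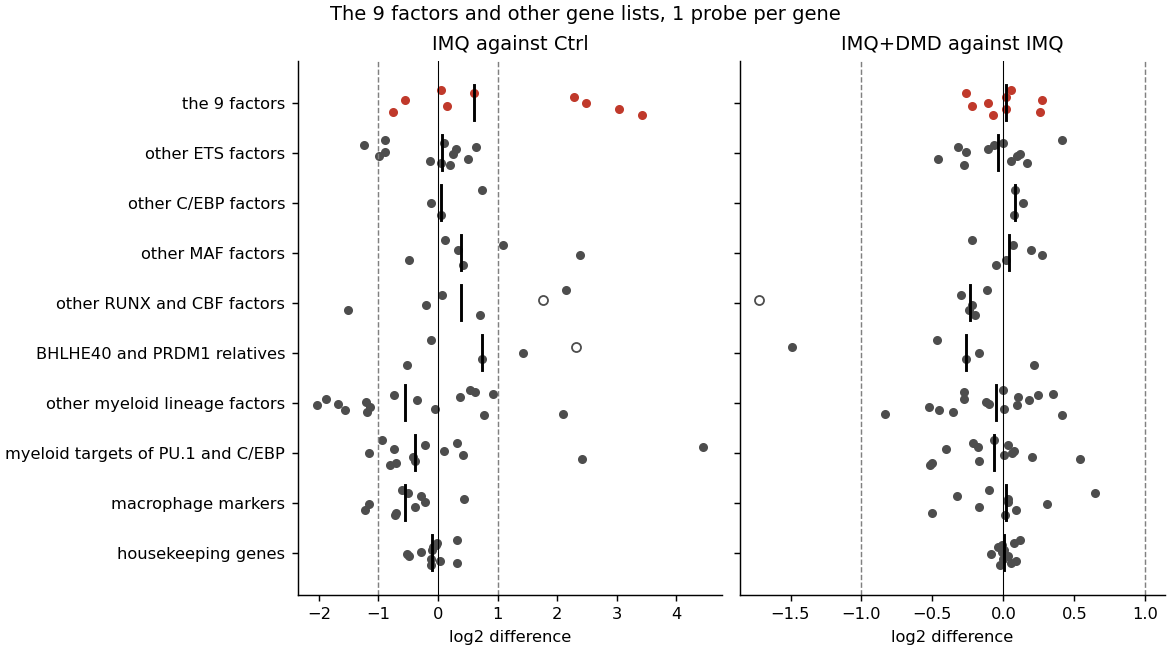
Log2 differences of the 9 factors in red and of 9 other gene lists in grey, with 1 point per gene, open circles for bounds, a vertical bar at the median of each list, and dashed lines at 2-fold. In IMQ against Ctrl the factors run from -0.76 to 3.43, and the other myeloid lineage factors have a median of -0.55.

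The labelled cell type was checked with macrophage markers. CD14, CSF1R, ITGAM, ITGAX, MRC1, MSR1, CD163, FCGR3A, AIF1, and MARCO were well above background on each of the 3 arrays, and CD68 and LYZ were not analysed here. This rating does not tell cell types apart. All 5 T cell, 4 B cell, and 5 granulocyte precursor markers read here also had it on each array, as did 2 of 4 fibroblast markers. After IMQ 9 of the 10 macrophage markers were lower, with CD163 at -1.22 and FCGR3A at -1.17 past 2-fold and a median of -0.56. Their summed normalized intensity was 327592 in Ctrl, 243849 in IMQ, and 221239 in IMQ+DMD. Most of each sum was the probe of CSF1R, with 224896, 172912, and 153691 in that order. For IMQ+DMD against IMQ, 6 of the 10 markers were higher and 4 lower, with a median of 0.02. The part of the macrophage markers in the lower CEBPA and MAF was not tested. Of 12 housekeeping genes 0 reached 2-fold, and their median was -0.10. Among markers of other cells, the summed intensity was 1084, 980, and 1162 for T cells in the order Ctrl, IMQ, and IMQ+DMD and 168, 142, and 175 for fibroblasts, with COL1A2 and COL3A1 not well above background on any of the 3 arrays. The sums were 4736, 3842, and 4571 for B cells, 22583, 25064, and 26834 for precursors of granulocytes, and 18885, 17830, and 18233 for keratinocytes. These sums compare arrays within a list and not 1 list with another, and a bright probe can dominate them. In Ctrl, KRT10 had 18750 of the keratinocyte sum and CD79A had 4148 of the B cell sum. KRT5 was higher in IMQ+DMD than in IMQ by a bound of 1.11. The erythroid sum was 1204, 1212, and 1346. None of the lists of other cells had a gene at least 2-fold different between IMQ and Ctrl, and their part in the results was not tested.

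Genes whose pattern was most like that of the 4 higher members were found among 17984 genes by the distance over the log2 differences of IMQ against Ctrl and IMQ+DMD against IMQ, which rest on 3 arrays. For CEBPB they were ADORA2A, KYNU, and PDE4DIP, at distances of 0.11 to 0.19. SAT1, CXCL12, and AREG were nearest to BHLHE40, at 0.05 to 0.10. The nearest to PRDM1 were CASC15, SNN, and USP12, at 0.08 to 0.11, and to ETS2 EBI3, TRAF1, and ELOVL7, at 0.10 to 0.14.

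The 4 higher members were also read under other ways of scaling the arrays. The log2 difference of IMQ against Ctrl was lowest with scaling to the spike-in probes, where it was 2.56 for CEBPB, 2.91 for BHLHE40, 1.78 for PRDM1, and 1.95 for ETS2. All 4 thus stayed at least 2-fold higher. That scaling moved the median of all probes to -0.64, and with it CEBPA was at -1.22, MAF at -1.07, and RUNX1 at 0.09, so that CEBPA and MAF were no farther from the median of all probes than with the deposited normalization.

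**Figure D5:**
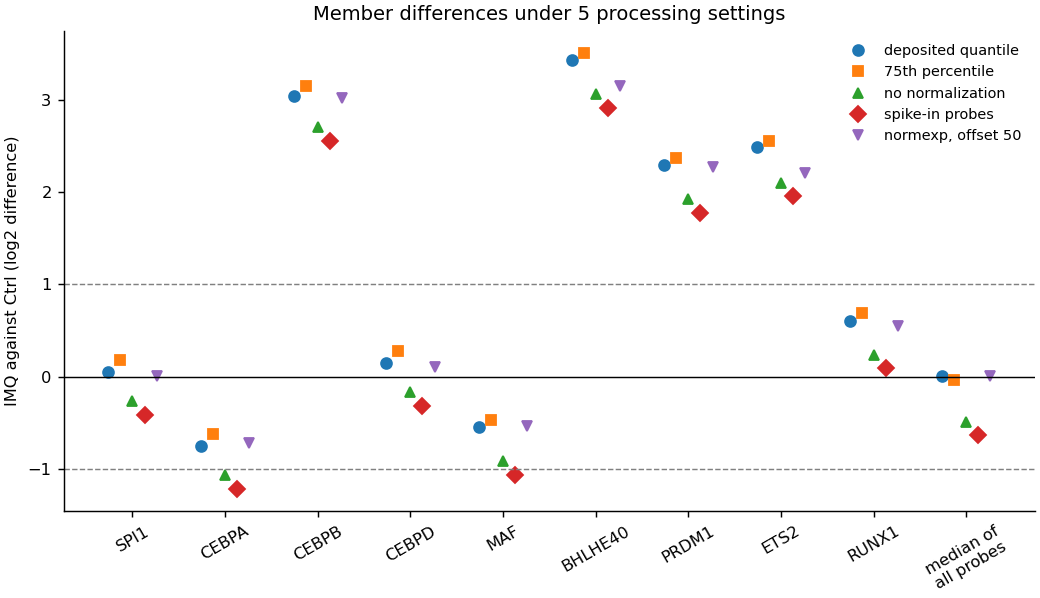
Log2 difference of IMQ against Ctrl for each gene and for the median of all probes under 5 processing settings, with dashed lines at 2-fold. CEBPB, BHLHE40, PRDM1, and ETS2 lie above the upper line under each setting, while SPI1 and CEBPD lie on either side of 0.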

How the data were processed

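RNA of THP-1 macrophages was measured on 3 one-color arrays. The authors deposited scanner output from Feature Extraction 10.5.1.1, with spot intensity after background correction, and a table of raw and quantile-normalized intensity per probe, on the linear scale. The raw columns were checked against the scanner output for the 57901 single-spot probes, apart from spots marked as outliers. They were equal, with a largest deviation of 1.30e-13 percent. No column of per-sample values in that table was left unused.

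The deposited normalized intensity was converted to log2 here. Comparison of a probe required a rating of well above background on the brighter array, and a dim value was raised to the lowest value well above background on its array, which makes the difference a bound. These floors were log2 values of 4.04 in Ctrl, 4.57 in IMQ, and 4.08 in IMQ+DMD. The probe of a gene with the highest log2 mean over the arrays stood for it. The technical SD of a difference came from the median SDs of the 10-spot probes of like brightness on both arrays. Differences were described by size, without a test. The code was tested on simulated data.

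All members were named. From the context lists, genes at least 2-fold different in IMQ against Ctrl or IMQ+DMD against IMQ were named, and for members past 2-fold, the 3 genes of most similar pattern. The members and the lists were chosen with earlier results of these data known. The alternatives were quantile normalization computed here, scaling to the 75th percentile or to 10 spike-in probes, no normalization, normexp with an offset of 50, other filters on dim probes, thresholds of 1.5-fold and 4-fold, and other rules for the probe that stands for a gene. Promoter sequences and starts came from RefSeq on GRCh38.p14, and all 9 members matched by symbol in the RefSeq gene table. Probe positions are on hg19, as in the scanner files, and the exon or UTR at each probe was not looked up here. The tools were limma 3.58.1 in R 4.3.3 together with numpy 2.4.6, pandas 2.3.3, and matplotlib 3.10.9 in Python 3.11.15.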

Additional observations from a re-analysis of the deposited data

How the results depend on the processing

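No paired analysis was possible because each group had 1 array. For IMQ against Ctrl, the 7 member probes at least 2-fold higher became 5 without normalization and with scaling to the spike-in probes, where both RUNX1 probes past 2-fold fell below it. For IMQ against Ctrl, the count of member probes at least 2-fold lower, and likewise of genes, was 0 and became 1 without normalization, 2 with scaling to the spike-in probes, and 1 at a threshold of 1.5-fold. For IMQ+DMD against Ctrl, the 5 probes at least 2-fold higher became 8 at 1.5-fold. The median over the 9 genes for IMQ against Ctrl was 0.60 and moved to 0.68 with the 75th percentile, 0.24 without normalization, 0.088 with the spike-in probes, and 0.79 with the mean over all probes of a gene. For IMQ+DMD against IMQ, 0.02 moved to -0.17 with the 75th percentile, -0.11 without normalization, and -0.075 with the mean over probes. For IMQ+DMD against Ctrl, 0.34 moved to 0.25 with the 75th percentile and 0.64 with the mean over probes, and reversed to -0.14 without normalization and -0.11 with the spike-in probes, as did RUNX1 itself with the same values. For IMQ against Ctrl, CEBPD reversed to -0.17 and -0.32 under those settings in turn, RUNX1 A_33_P3211809 to -0.12 and -0.26, and RUNX1 A_33_P3211818 to -0.018 with the spike-in probes. Both of these settings also shifted the median of all probes, and the cause of the shift was not tested. Over 42 differences of single probes or genes, the alternatives gave 348 values, 327 with the same sign and 21 with the other. The filters on dim probes could not change any of the 42, since every member probe was well above background on each array. Quantile normalization computed here repeats the deposited method and kept all 42 within the technical SD. Of the 348 values, 227 stayed within the technical SD and 114 moved by more. The remaining 7 were the reversals of single probes or genes given above. Leaving out an array was not possible with 1 per group.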
